A study of Homo sapiens with 9 samples.

Results

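The MYC family and the partners of MAX are represented here by 9 genes, chosen by symbol: MYC, MYCN, MYCL, MAX, MXD1, MXI1, MXD3, MXD4 and MNT. These genes and the gene lists used below were chosen with earlier results of these data known. All 9 were found among the 62700 genes of the count table, and all 9 were among the 17576 genes that passed the abundance filter and were tested. PolyA RNA was sequenced from 293T cells (also called HEK293T), a human embryonic kidney line that carries adenovirus E1 genes and the SV40 large T antigen. The cells were transfected with an empty vector, with HA-CIC::DUX4 or with HA-CIC(ex20)::NUTM1(ex6), called CIC::NUTM1 from here on, and each group had 3 libraries. All groups therefore shared the cell line, the transfection with FuGENE 6 and the vector background, and RNA was taken about 48 hours after 300000 cells were plated with the plasmid. MYC is a known effector in sarcomas with CIC fusions and in carcinomas with NUTM1 fusions, and the comparisons ask whether either fusion, expressed for a short time in this line, changed MYC or its partners.

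Library totals ran from 16970771 to 33655445 counts. Replicates were transfected on separate days, so the spread covers separate transfections of the same line. The share of cells that took up a plasmid is not given in the sources used here, and in bulk RNA a change in few cells and a smaller change in all cells cannot be told apart. CIC, NUTM1 and DUX4 reads were not used here, which leaves the plasmid given by each label without a check in these data. All 8 genes listed as expressed by 293T cells were detected, with summed levels of 1462 to 1648 CPM, the counts scaled to the effective size of the library, with empty vector, 1433 to 1489 with CIC::DUX4 and 1511 to 1597 with CIC::NUTM1. Markers of endothelial cells (4 genes) summed to 0.481 to 0.908, 1.53 to 7.67 and 3.52 to 6.36 CPM in the same order. Markers of leukocytes (5 genes) summed to 1.72 to 3.33, 2.47 to 3.11 and 4.35 to 6.54 CPM, and the T cell gene CD3E was at 0 counts in these 2 groups, empty vector and CIC::NUTM1. Markers of hepatocytes (4 genes) reached at most 0.941 CPM in a library, and those of fibroblasts (5 genes) summed to 37.7 to 44.4 CPM over all 9 libraries. Single markers moved within these sums. Of the 8 genes listed for 293T cells, 1 was called higher and 1 lower with CIC::DUX4 (25%, beside 8.24% of all tested genes). With CIC::NUTM1, 2 were higher and 1 lower (37.5%, beside 15.3%), and between the fusions 1 was higher and 1 lower (25%, beside 6.61%). Their log2 fold changes ran from -0.653 to 1.31, -0.705 to 0.608 and -1.34 to 0.515 in these 3 comparisons. Among markers of other cell types, LUM was called higher with both fusions (2.66 CPM with empty vector, 5.49 with CIC::DUX4 and 7.23 with CIC::NUTM1), as was PTPRC (0.0195, 0.412 and 0.909 CPM). DCN, CD14 and KDR were called higher and COL1A1 lower with CIC::NUTM1. The part of these low marker levels in the results was not tested.

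MAX is the shared partner of the network. MYC, MYCN and MYCL bind DNA at E-boxes (CACGTG) as dimers with MAX and recruit coactivators, while the MXD proteins (MXD1, MXI1, which is also known as MXD2, MXD3 and MXD4) and MNT dimerise with MAX at the same kind of site and recruit the SIN3 corepressors. CIC is itself a repressor that binds octamers of the form TGAATGAA or TGAATGGA, and its fusions to DUX4 or NUTM1 are known to act as activators.

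In cells with empty vector, MYC was by far the most abundant member. To compare genes, levels were divided by the length of the gene's merged exons, and on this scale MYC stood at 66.0 ± 3.11 CPM per kb (SD, n = 3 here and for every SD given). MXD4 followed at 19.9 CPM per kb, MAX at 17.8, MXI1 at 11.7, MXD3 at 5.21, MNT at 5.17, MYCL at 2.57, MXD1 at 1.48 and MYCN at 0.269. The libraries of MXD3 and MNT overlapped, so their order was not resolved, whereas every other neighbour in this order was separated in all 3 libraries. With CIC::DUX4 the order of the most and least abundant members was the same, with MYC at 61.2, MXD4 at 19.6, MAX at 17.1, MXI1 at 11.0 and MYCN at 1.02 CPM per kb. The ranges over libraries of MNT (5.45) and MXD3 (5.02) overlapped there. Those of MYCL (3.56, range 3.22 to 4.03) and MXD1 (2.76, range 2.15 to 3.52) did too. Their order within each CIC::DUX4 library was not compared. With CIC::NUTM1, MNT (6.76) lay above MXD3 (5.25) in every library, an order that also turned with the longest transcript. MXD1 (3.43 CPM per kb) stood above MYCL (2.76) with CIC::NUTM1, but their libraries overlapped and the order turned with the longest transcript as the length (3.90 for MXD1 and 4.29 for MYCL).

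**Figure D1:**
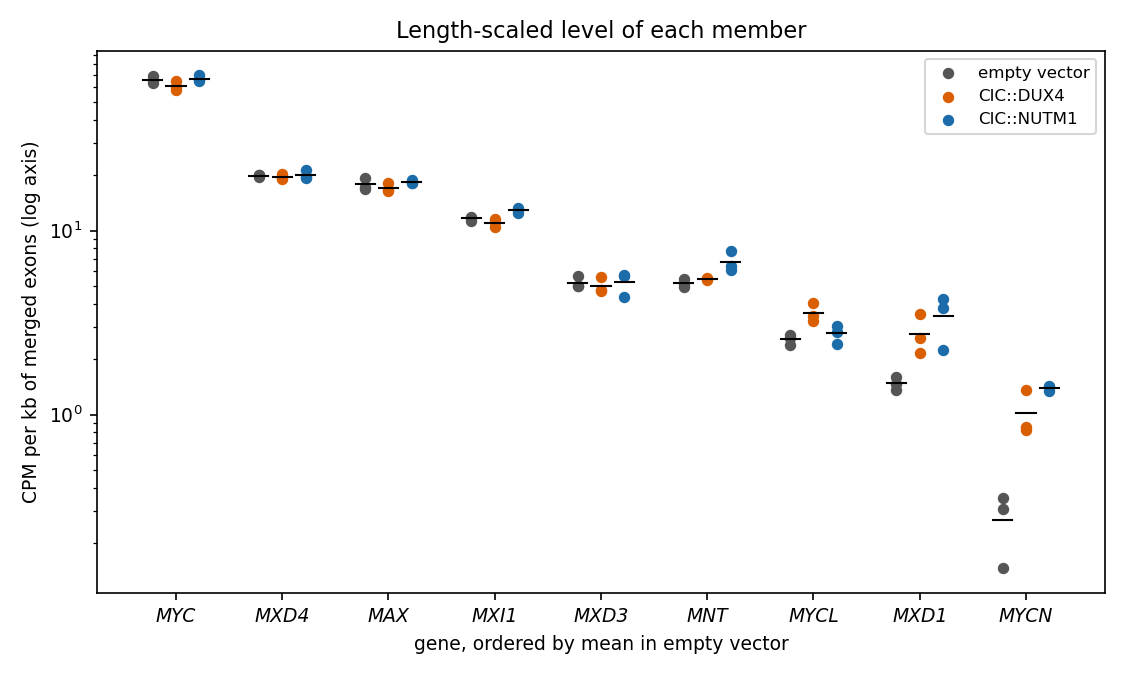
Level of each of the 9 genes in CPM per kb of merged exons (log axis), with genes on the x axis ordered by their mean in empty vector; points are libraries and bars are means of 3. MYC lies at the top of every group (66.0, 61.2 and 66.9 CPM per kb with empty vector, CIC::DUX4 and CIC::NUTM1) and MYCN at the bottom (0.269, 1.02 and 1.39).

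MYC, the main activating member in this line, was not called with either fusion. Its level was 197, 208 and 189.7 CPM in the 3 empty vector libraries, 175, 181 and 196 CPM with CIC::DUX4, and 209, 198 and 195 CPM with CIC::NUTM1. The 3 groups overlapped, and the lowest libraries were 2 of the 3 with CIC::DUX4. With 3326 to 7109 MYC counts per library, counting error was small beside the spread between libraries. The log2 fold change was -0.11 ± 0.06 (SE) with CIC::DUX4 (95% confidence interval -0.24 to 0.02, edgeR adjusted p = 0.368). With CIC::NUTM1 it was 0.02 ± 0.06 (interval -0.11 to 0.15, edgeR adjusted p = 0.90), a sign that turned under 2 other library scalings and without the abundance filter. These intervals span ratios of 0.847 to 1.01 with CIC::DUX4 and 0.925 to 1.11 with CIC::NUTM1. Between the fusions MYC differed by 0.13 (interval -0.00 to 0.26, edgeR adjusted p = 0.286). The gene (ENSG00000136997) lies on chromosome 8 and no other annotated gene overlaps it.

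**Figure D2:**
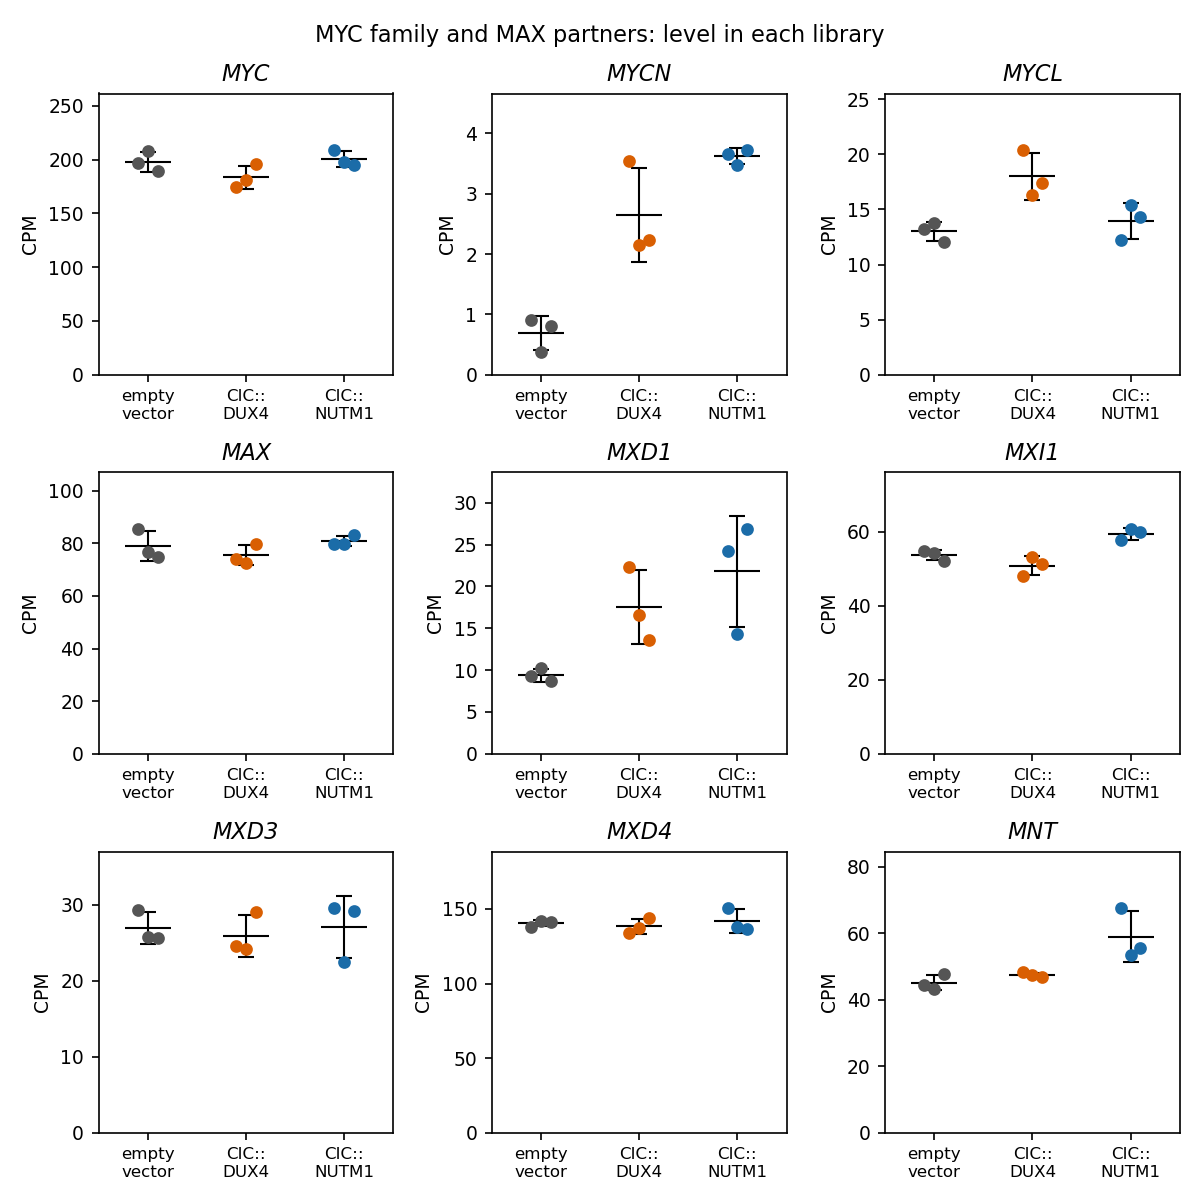
Level of each gene in CPM (y axis, from 0, with its own scale in each panel) by group on the x axis; points are the 9 libraries, wide bars the means of 3 and narrow bars the SD. MYCN and MXD1 are higher in every library of both fusions than in every empty vector library, MYCL is highest with CIC::DUX4, MNT is highest with CIC::NUTM1, and MYC, MAX, MXD3 and MXD4 overlap between groups.

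MYCN, the neural member of the family, rose with both fusions from a very low level. It stood at 0.916, 0.381 and 0.801 CPM with empty vector (13 to 20 counts), at 3.55, 2.16 and 2.23 CPM with CIC::DUX4 (38 to 93 counts), and at 3.66, 3.48 and 3.73 CPM with CIC::NUTM1 (61 to 91 counts). Each fusion library lay above each empty vector library. The rise was 3.96-fold with CIC::DUX4 (log2 fold change 1.99 ± 0.36 SE, interval 1.24 to 2.73, edgeR adjusted p = 0.000393). With CIC::NUTM1 it was 5.37-fold (2.43 ± 0.36, interval 1.69 to 3.16, edgeR adjusted p = 1.53e-05). Both calls held in all 9 refits that left out 1 library, with log2 fold changes of 1.64 to 2.20 and 2.08 to 2.64. The fusions themselves were not shown to differ for MYCN (0.44, interval -0.21 to 1.09, edgeR adjusted p = 0.513). The 2 comparisons use the same empty vector libraries, so they are not independent.

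The scale of the MYCN rise is set by its start. Among the RNA of the 3 activating genes per kb, MYCN made up 0.395% with empty vector, 1.56% with CIC::DUX4 and 1.96% with CIC::NUTM1, while MYC made up 95.9%, 93.0% and 94.1%. The summed level of the 3 genes was 68.9 ± 3.19, 65.8 ± 3.19 and 71.0 ± 2.24 CPM per kb in the same order, with no test.

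MYCN (ENSG00000134323) lies on chromosome 2 (GRCh38, chr2:15940564-15947007, plus strand), and the noncoding gene MYCNOS runs across its start on the other strand. MYCNOS had 2 counts over the empty vector libraries, 6 with CIC::DUX4 and 8 with CIC::NUTM1, too few to be tested. Whether the counting used strand is not given in the sources used here, so reads from the shared stretch cannot be assigned to one of the pair with certainty. The 250 bases before the RefSeq start of MYCN are shown because MYCN had the largest rise of the 9 genes, and they held neither CIC octamer nor an E-box on either strand; the stretch is plus strand, GRCh38.p14, chr2:15940300-15940549.
MYCN: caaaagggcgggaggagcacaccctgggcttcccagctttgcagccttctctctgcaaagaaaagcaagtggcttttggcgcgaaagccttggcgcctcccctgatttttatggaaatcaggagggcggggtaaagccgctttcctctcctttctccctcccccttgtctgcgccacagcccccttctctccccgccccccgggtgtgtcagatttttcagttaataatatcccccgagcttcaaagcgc
A TGAATGAA octamer did occur further in, at a start site of MYCNOS, inside an exon of MYCNOS and an intron of MYCN, 1125 bases after the start of MYCN (minus strand, GRCh38.p14, chr2:15941665-15941692). Capitals mark the octamer, which reads TTCATTCA on the strand printed.
MYCNOS: aaactgccatTTCATTCAcacaaggcac
Either octamer occurred in 2.63% of the 35116 RefSeq windows of the same length (250 bases before to 50 after a start), 1.65% for TGAATGAA and 1.03% for TGAATGGA, so a match is a description of the letters and no evidence of binding.

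MYCL, the third activating gene, was called with CIC::DUX4 alone. Its levels were 13.2, 13.8 and 12.0 CPM with empty vector, 20.4, 16.3 and 17.3 CPM with CIC::DUX4, and 12.2, 15.4 and 14.3 CPM with CIC::NUTM1. Every CIC::DUX4 library lay above every other library, and the groups with empty vector and CIC::NUTM1 overlapped. The rise with CIC::DUX4 was 1.39-fold (log2 fold change 0.47 ± 0.14, interval 0.19 to 0.75, edgeR adjusted p = 0.0282). The call was lost without any of the 3 empty vector libraries (edgeR adjusted p = 0.0677, 0.0511 and 0.156 without replicates 1, 2 and 3) and without CIC::DUX4 replicate 1 (0.229). With CIC::NUTM1 the log2 fold change was 0.11 (interval -0.18 to 0.39, edgeR adjusted p = 0.682). The direct difference, CIC::NUTM1 minus CIC::DUX4, was -0.36 ± 0.14 (interval -0.65 to -0.08, edgeR adjusted p = 0.126) and did not pass, so MYCL is not shown to respond differently to the fusions. MYCL (ENSG00000116990, chr1:39895426-39902256, minus strand) overlaps 1 gene on the other strand.

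MAX itself, the obligate partner, was not called in any comparison. It stood at 78.9 ± 5.81 CPM with empty vector, 75.5 ± 3.87 with CIC::DUX4 and 80.9 ± 1.81 with CIC::NUTM1. Its libraries overlapped between all groups. The log2 fold changes were -0.06 (interval -0.22 to 0.09, edgeR adjusted p = 0.723) and 0.04 (-0.12 to 0.19, edgeR adjusted p = 0.812), the latter changing sign under 2 other scalings. MAX (ENSG00000125952, chr14:65006174-65102695, minus strand) overlaps 4 genes on the other strand, FNTB among them.

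Among the repressing partners, MXD1, a MYC antagonist best known from differentiating cells, rose with both fusions. It stood at 9.33, 10.2 and 8.66 CPM with empty vector, at 22.4, 16.5 and 13.6 CPM with CIC::DUX4, and at 24.2, 14.3 and 26.9 CPM with CIC::NUTM1. All 6 fusion libraries lay above all 3 empty vector libraries, but the fusion libraries were widely spread (SD 4.44 and 6.64 CPM, against 0.769 with empty vector). The rise was 1.87-fold with CIC::DUX4 (log2 fold change 0.90 ± 0.22, interval 0.43 to 1.38, edgeR adjusted p = 0.0172). It was 2.30-fold with CIC::NUTM1 (1.20 ± 0.22, interval 0.73 to 1.67, edgeR adjusted p = 0.00125). The CIC::NUTM1 call held in all 9 refits, whereas the CIC::DUX4 call was lost without empty vector replicate 1 or 3 or CIC::DUX4 replicate 1 (edgeR adjusted p = 0.0606, 0.0954 and 0.0671). Between the fusions MXD1 differed by 0.30 (interval -0.16 to 0.75, edgeR adjusted p = 0.524), which became 0.53 (edgeR adjusted p = 0.0455) without CIC::NUTM1 replicate 2, the low library of its group.

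MXD1 (ENSG00000059728, chr2:69897688-69942945, plus strand) overlaps SNRNP27, a splicing factor gene on the same strand. Strand cannot separate reads from a stretch that both genes share, and the level of SNRNP27 was not looked at. The 182 bases from 250 before the RefSeq start of MXD1 up to the first annotated UTR base are shown (plus strand, GRCh38.p14, chr2:69914859-69915040). They were chosen because MXD1 and MYCN were the members called with both fusions. The 300-base window they come from held neither CIC octamer nor an E-box.
MXD1: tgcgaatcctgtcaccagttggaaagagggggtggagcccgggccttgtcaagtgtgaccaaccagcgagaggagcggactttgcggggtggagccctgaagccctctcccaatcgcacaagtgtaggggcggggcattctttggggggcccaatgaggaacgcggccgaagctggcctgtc
No match says only that these letters are not in this window, which lies inside the gene body given above. The start of that gene body was not scanned.

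CIC::DUX4 replicate 1 was the highest library of its group for MYCN, MYCL and MXD1 and the lowest for MYC. Without it, the log2 fold change of MXD1 with CIC::DUX4 was 0.68, and 1 of the 3 calls remained, that of MYCN. The number of members called with CIC::DUX4 was also 1 without empty vector replicate 1 or 3.

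MNT, a repressor expressed in growing as well as resting cells, rose with CIC::NUTM1. Its levels were 44.6, 43.1 and 47.6 CPM with empty vector, 48.3, 47.4 and 46.9 CPM with CIC::DUX4, and 67.7, 53.6 and 55.7 CPM with CIC::NUTM1. The CIC::NUTM1 libraries were the 3 highest of the 9, and replicate 1 stood above the other two. The rise over empty vector was 1.31-fold (log2 fold change 0.38 ± 0.09, interval 0.20 to 0.57, edgeR adjusted p = 0.00353), and the call held in all 9 refits (0.27 to 0.45). With CIC::DUX4 the log2 fold change was 0.08 (interval -0.11 to 0.26, edgeR adjusted p = 0.723). MNT was the only member called between the fusions, 1.24-fold higher with CIC::NUTM1 (0.31 ± 0.09, interval 0.12 to 0.50, edgeR adjusted p = 0.0381). That difference was called in 2 of the 9 refits only, and without CIC::NUTM1 replicate 1 it was 0.20 (edgeR adjusted p = 0.224).

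MXI1 had a smaller difference that did not pass. It stood at 54.9, 54.2 and 52.2 CPM with empty vector, 48.1, 53.2 and 51.3 CPM with CIC::DUX4, and 57.7, 60.8 and 59.9 CPM with CIC::NUTM1. Every CIC::NUTM1 library lay above every other library. The log2 fold change against empty vector was 0.15 (interval -0.01 to 0.31, edgeR adjusted p = 0.234), and against CIC::DUX4 it was 0.23 (interval 0.06 to 0.39, edgeR adjusted p = 0.0924). With CIC::DUX4 against empty vector it was -0.08 (edgeR adjusted p = 0.655).

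MXD4, the most abundant of the repressors, stood at 140.4 ± 1.92 CPM with empty vector, 138 ± 5.00 with CIC::DUX4 and 142 ± 7.75 with CIC::NUTM1. Its log2 fold changes were -0.02 and 0.01 (edgeR adjusted p = 0.903 and 0.921). MXD3, the member linked to the S phase of the cell cycle, stood at 26.9 ± 2.09, 25.9 ± 2.72 and 27.0 ± 4.04 CPM, with log2 fold changes of -0.06 and 0.01 (edgeR adjusted p = 0.864 and 0.981). For both genes the libraries overlapped in every comparison, and the sign of the CIC::NUTM1 value turned under 2 other scalings and without the abundance filter. The 95% intervals of these 4 changes lay within -0.30 and 0.25.

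Summed per kb, the 5 repressor genes stood at 43.4 ± 0.319 CPM per kb with empty vector, 43.9 ± 0.729 with CIC::DUX4 and 48.5 ± 2.84 with CIC::NUTM1. MXD1 made up 3.41%, 6.30% and 7.03% of this sum, and MXD4 45.8%, 44.7% and 41.5%. The ratio of activating to repressing RNA was 1.59 ± 0.0707, 1.50 ± 0.0481 and 1.47 ± 0.0660, given as a description with no test. It compares RNA, not protein, and its size depends on the gene lengths used, here those of merged exons. With the longest transcript as the length, MYC stood at 83.7 and MXD4 at 33.2 CPM per kb with empty vector. The sums and the ratio were not repeated with that length.

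Sequence matches were found before the starts of 3 of these repressors, and they are shown to set the members with a match beside their values above. MXI1, not called in any comparison, held a TGAATGAA octamer just before the first of its RefSeq starts (plus strand, chr10:110207580-110207607, TTCATTCA on the strand printed). The windows at the later MXI1 starts held none of the motifs, and a gene with several windows has more chances of a match. MNT, called with CIC::NUTM1, held an E-box (minus strand, chr17:2401238-2401263), as did MXD4, not called (minus strand, chr4:2262332-2262357). Capitals mark the match, the build is GRCh38.p14, and CACGTG occurred in 7.26% of all windows.
MXI1: gtcctgtaggTTCATTCAatctcccata
MNT: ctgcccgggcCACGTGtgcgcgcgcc
MXD4: gccgggccacCACGTGctgttgctaa
The windows of MYCL, MAX and MXD3 held none of the 3 motifs. The gene bodies are chr10:110207605-110287365 for MXI1 (ENSG00000119950), chr17:2384060-2401118 for MNT (ENSG00000070444), chr4:2247432-2262294 for MXD4 (ENSG00000123933) and chr5:177301461-177312757 for MXD3 (ENSG00000213347). Each of these 4 overlaps at least 1 other annotated gene.

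Counted together, 3 of the 9 members were higher and 0 lower with CIC::DUX4 (MYCN, MYCL and MXD1), where 8.24% of all tested genes were called, 6.96% higher and 1.27% lower. With CIC::NUTM1, 3 were higher and 0 lower (MYCN, MXD1 and MNT), where 15.3% of all tested genes were called, 11.5% higher and 3.83% lower. That split depends on the scaling: 2018 genes were higher and 673 lower, but 1783 and 1138 with library totals and 1807 and 1124 with upper quartile factors. Between the fusions 1 member was called, MNT, against 6.61% of all tested genes (4.97% higher and 1.64% lower with CIC::NUTM1, 874 and 288 genes, which became 695 and 437 with library totals). No member was lower at an unadjusted edgeR p under 0.05 in either comparison with empty vector, and between the fusions 2 were higher and 1 lower. The share of all tested genes at that unadjusted threshold was not counted. DESeq2 and limma-trend also called 3 members higher and 0 lower in each comparison with empty vector. Libraries did not overlap for 3 members with CIC::DUX4 (25.7% of all tested genes), for 4 with CIC::NUTM1 (31.1%) and for 3 between the fusions (22% of all tested genes). The median log2 fold change of the 9 members was -0.02, 0.11 and 0.13 in these 3 comparisons, beside -0.00145, -0.000863 and -0.00528 over all tested genes. MYCN and MXD1 were called with both fusions, and their values were 1.99 and 2.43 for MYCN and 0.90 and 1.20 for MXD1.

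**Figure D3:**
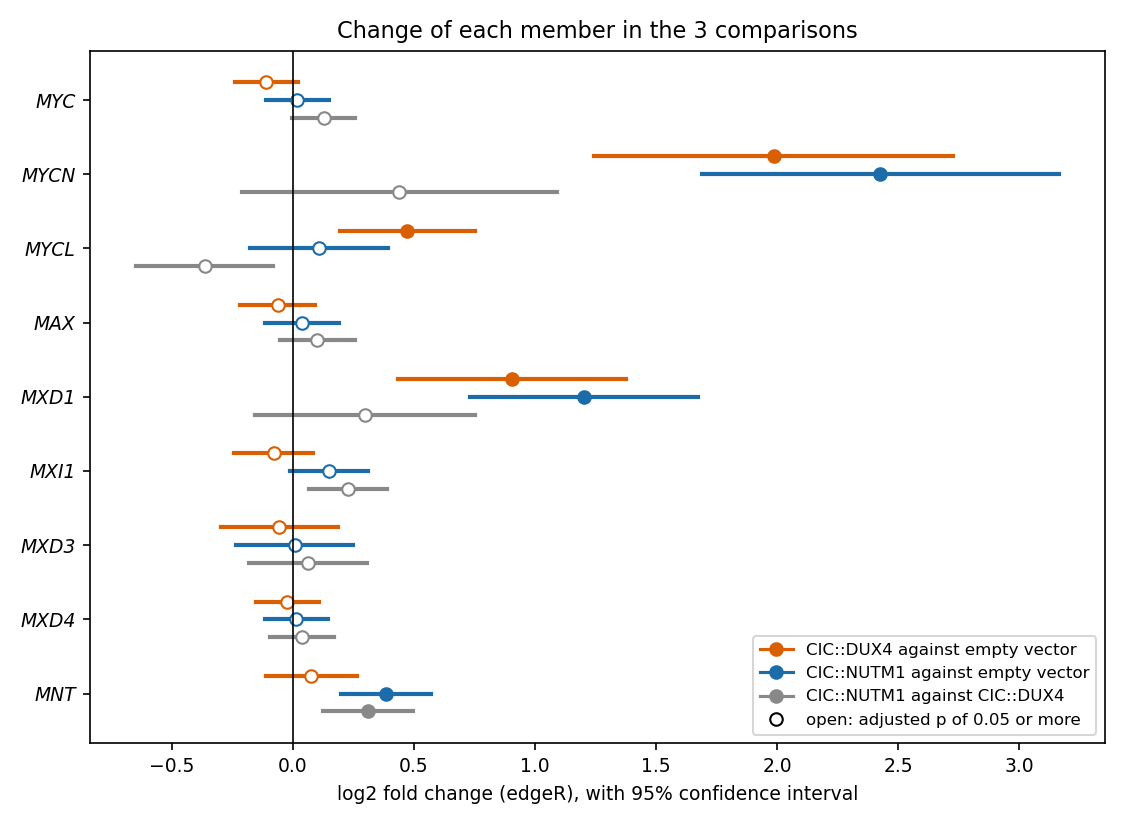
Log2 fold change of each gene (x axis, edgeR) with its 95% confidence interval in the 3 comparisons, by gene on the y axis; filled points have an adjusted p under 0.05 and open points do not. MYCN (1.99 and 2.43) and MXD1 (0.90 and 1.20) lie right of 0 against empty vector for both fusions, MYCL is filled for CIC::DUX4 only (0.47), and MNT for CIC::NUTM1 against empty vector (0.38) and against CIC::DUX4 (0.31).

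Across the 9 libraries MYCN and MXD1 had a Pearson r of 0.85 in log2 CPM, MXD1 and MNT 0.703, and MYC and MYCN -0.278. These values describe libraries that share their group, and no p is given. Of 10116 other genes with a mean of at least 10 CPM, those most like MYCN were GADD45A (r = 0.983), a growth arrest and DNA damage gene, ATF3 (0.977), a stress-induced transcription factor, and CAMK2D (0.972), a calmodulin-dependent kinase. GADD45A stood at 21.5 ± 3.65, 40.8 ± 4.29 and 51.5 ± 5.71 CPM with empty vector, CIC::DUX4 and CIC::NUTM1. It shares its order of groups with MYCN, but it was picked by its correlation in these same libraries, so this is no separate result. Most like MXD1 were ATG14 (0.973), STK17A (0.973) and TAF4B (0.971). Most like MNT were RNF126 (0.98), P3H1 (0.973) and EIF3B (0.965). Among the genes most like MYCL were RPS6KA5 (0.959) and DDX42 (0.953), and among those most like MYC was SLC1A4 (0.936).

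Other genes of the network were read from lists of 60 genes, of which 58 were tested. Called genes numbered 9 higher and 0 lower with CIC::DUX4 (15.5% of the 58, beside 8.24% of all tested genes). They numbered 12 higher and 1 lower with CIC::NUTM1 (22.4%, beside 15.3%), and 9 higher and 3 lower between the fusions (20.7%, beside 6.61%). At an unadjusted edgeR p under 0.05, 10 were higher and 1 lower, 18 higher and 5 lower, and 16 higher and 3 lower, in the same order. The share of all tested genes at that unadjusted threshold was not counted. The median log2 fold changes of the 58 genes were 0.02, 0.05 and 0.05. Leaving out a single library brought the count called with CIC::DUX4 down to 5 without empty vector replicate 1, and to 4 without empty vector replicate 3 or CIC::DUX4 replicate 1. For CIC::NUTM1 it came to 8 without empty vector replicate 1 or 3. Between the fusions it came to 4 without CIC::NUTM1 replicate 3 and to 7, 5 and 7 without CIC::DUX4 replicates 1, 2 and 3.

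The remaining proteins of the MAX and MLX network (MLX, MLXIP, MLXIPL and MGA) had log2 fold changes between -0.21 and 0.23 over the 3 comparisons, with edgeR adjusted p of 0.250 to 0.958. Of 17 cofactors of MYC and MXD proteins, SIN3A, the corepressor scaffold of the MXD proteins, rose by 0.26 on the log2 scale with CIC::DUX4 (edgeR adjusted p = 0.0361, lost in 4 of 9 refits) and by 0.44 with CIC::NUTM1 (0.000128). ZBTB17 (MIZ1), through which MYC represses genes, rose by 0.32 with CIC::DUX4 (edgeR adjusted p = 0.0495, lost in 6 of 9 refits) and was lower with CIC::NUTM1 than with CIC::DUX4 (-0.38, edgeR adjusted p = 0.0222, lost in 4 of 9 refits).

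Among 24 genes for MYC protein turnover, FBXW7, the ubiquitin ligase subunit that recognises phosphorylated MYC, rose with both fusions. Its levels were 28.0, 23.2 and 20.6 CPM with empty vector, 34.0, 32.5 and 32.3 CPM with CIC::DUX4, and 46.6, 40.6 and 45.6 CPM with CIC::NUTM1. The log2 fold changes were 0.47 (edgeR adjusted p = 0.00434) and 0.89 (6.64e-07), and the direct difference was 0.42 (edgeR adjusted p = 0.012). The CIC::DUX4 call was lost without empty vector replicate 3 (edgeR adjusted p = 0.0621), and the direct difference without CIC::NUTM1 replicate 3 or CIC::DUX4 replicate 2. PIM1, a kinase that stabilises MYC, rose as well, from 20.2 ± 2.60 CPM to 29.6 ± 3.17 and 39.5 ± 5.22 (log2 fold changes 0.55 and 0.96, edgeR adjusted p = 0.00273 and 1.13e-06). GSK3B, the kinase that marks MYC for FBXW7, rose by 0.37 with CIC::DUX4 (edgeR adjusted p = 0.00136), and CIP2A, a phosphatase inhibitor that protects MYC, rose by 0.25 with CIC::NUTM1 (0.0201, lost in 3 of 9 refits). The rise of FBXW7 and the rise of PIM1 concern genes with opposed known roles toward MYC protein, which was not measured.

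Of 15 genes that bind MYC-family RNA or promoters or lie beside MYC or MYCN, 13 passed the filter. The 4 called with CIC::DUX4 were all higher: LIN28B (0.32), IGF2BP3 (0.39), TCF7L2 (0.42) and PVT1 (0.57). The TCF7L2 call was lost in 4 of 9 refits, and that of LIN28B without CIC::DUX4 replicate 1 (edgeR adjusted p = 0.0607). All tested genes were called at the shares given above (8.24% and 15.3%). With CIC::NUTM1, 8 were higher, led by TCF7L2 (1.30, edgeR adjusted p = 5.14e-08), a transcription factor of the WNT pathway, and IGF2BP3 (0.96, edgeR adjusted p = 1.1e-09), a protein that binds and stabilises MYC mRNA. The others were PVT1 (0.56), LIN28B (0.38), ELAVL1 (0.36), FUBP1 (0.34), IGF2BP2 (0.22) and IGF2BP1 (0.18), and PCBP2 was lower (-0.20). The calls of IGF2BP1, IGF2BP2 and PCBP2 were lost in 5, 3 and 6 of the 9 refits, and without CIC::NUTM1 replicate 3 the values were 0.09 for IGF2BP1 and 0.14 for IGF2BP2. IGF2BP3 stood at 80.6 ± 1.74 CPM with empty vector, 105.7 ± 7.60 with CIC::DUX4 and 156 ± 16.0 with CIC::NUTM1.

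PVT1, the noncoding neighbour of MYC, rose although MYC was not called. Its levels were 6.07, 7.99 and 5.81 CPM with empty vector, 11.3, 8.19 and 10.1 CPM with CIC::DUX4, and 10.6, 8.72 and 10.3 CPM with CIC::NUTM1. Each fusion group lay above empty vector, by a small margin, and the fusion groups overlapped each other. The log2 fold changes were 0.57 ± 0.18 (edgeR adjusted p = 0.0478) and 0.56 ± 0.18 (0.0345). These calls were lost in 5 and 4 of the 9 refits, over which the log2 fold changes ran from 0.45 to 0.74 and from 0.46 to 0.72.

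Known targets of MYC were read from 2 lists. The first held 65 tested genes known as activated by MYC, largely for ribosome biogenesis and nucleotide and polyamine synthesis. Of these, 0 were called with CIC::DUX4 by edgeR, DESeq2 or limma-trend, where 8.24% of all tested genes were called. At an unadjusted edgeR p under 0.05, 5 were lower and 0 higher with CIC::DUX4. At that threshold 8 were lower and 7 higher with CIC::NUTM1, and 5 lower and 12 higher between the fusions. The share of all tested genes at that unadjusted threshold was not counted. Leaving out empty vector replicate 2, CIC::NUTM1 replicate 1 or 2 or CIC::DUX4 replicate 3 brought the count called with CIC::DUX4 to 1 or 2. With CIC::NUTM1, 2 were higher and 3 lower (7.69%, beside 15.3% of all tested genes): PPAT (0.40, edgeR adjusted p = 0.000174), an enzyme of purine synthesis, and WDR74 (0.33, 0.0169) rose, and HK2 (-0.27, 0.0245), a hexokinase, DCTPP1 (-0.26, 0.00684) and SHMT2 (-0.17, 0.0395) fell. The calls of HK2 and SHMT2 were each lost in 5 of the 9 refits, that of WDR74 in 3 and that of DCTPP1 in 1, and that of PPAT in 0. This count ran from 1 without empty vector replicate 3 to 8 without CIC::NUTM1 replicate 2, and was 3, 3 and 2 without empty vector replicates 1 and 2 and CIC::NUTM1 replicate 3. Between the fusions, 5 were higher with CIC::NUTM1 (ODC1 0.30, PPAT 0.31, HSPD1 0.28, PHB1 0.19 and NCL 0.15) and 1 was lower (SLC29A2, -0.36), which is 9.23% beside 6.61% of all tested genes, and 2 were called without CIC::NUTM1 replicate 3 and 3 without CIC::NUTM1 replicate 1 or CIC::DUX4 replicate 2. Of these, the NCL call was lost in 9 of the 9 refits, that of PHB1 in 8, that of ODC1 in 3 and that of PPAT in 2, while those of HSPD1 and SLC29A2 were kept in all 9. The list's median log2 fold change was -0.04, -0.01 and 0.03 in the 3 comparisons. NOP2, the point far above the others in the plot of the lists, had 4 to 28 counts per library and was not called (1.04 and 0.91, edgeR adjusted p = 0.379 and 0.372).

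Of 12 genes known as repressed by MYC, 4 were higher and 2 lower with CIC::DUX4, and 5 were higher and 1 lower with CIC::NUTM1 (50% in each, beside 8.24% and 15.3% of all tested genes), with median log2 fold changes of 0.01 and 0.36. CDKN1B, the cyclin-dependent kinase inhibitor p27, moved in opposite directions. Its levels were 59.2, 58.9 and 58.5 CPM with empty vector, 41.9, 44.6 and 44.2 CPM with CIC::DUX4, and 112, 85.8 and 103 CPM with CIC::NUTM1. The log2 fold changes were -0.44 (edgeR adjusted p = 0.00126) and 0.77 (2.63e-07), and the direct difference was 1.20 (1.87e-09). CDKN2B, the inhibitor p15, rose with both fusions (0.58 and 1.41, edgeR adjusted p = 0.00377 and 1.74e-08), as did GADD45A (0.94 and 1.27), CLU, a secreted chaperone (1.15 and 1.71), and THBS1, an extracellular matrix glycoprotein (1.87 and 5.14). THBS1 had very few counts per library with empty vector (given further below), so its fold changes start near the floor. With CIC::DUX4, the THBS1 call was lost without empty vector replicate 2 or CIC::DUX4 replicate 1 (highest edgeR adjusted p = 0.172), and that of CDKN2B without CIC::DUX4 replicate 1 (0.0501). NDRG1, a stress-responsive gene, fell with both (-0.46 and -0.44, edgeR adjusted p = 0.000169 and 0.000192). CDKN1A, the inhibitor p21, was not called (-0.14 and -0.17, edgeR adjusted p = 0.610 and 0.399), and it is named after its values were seen. Of the 173 genes on all lists, members and markers included, 118 overlap another annotated gene on either strand. On the other strand 94 do, CDKN2B and THBS1 among them. CDKN1B, CLU and NOP2 overlap 1 gene each on the same strand only.

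**Figure D4:**
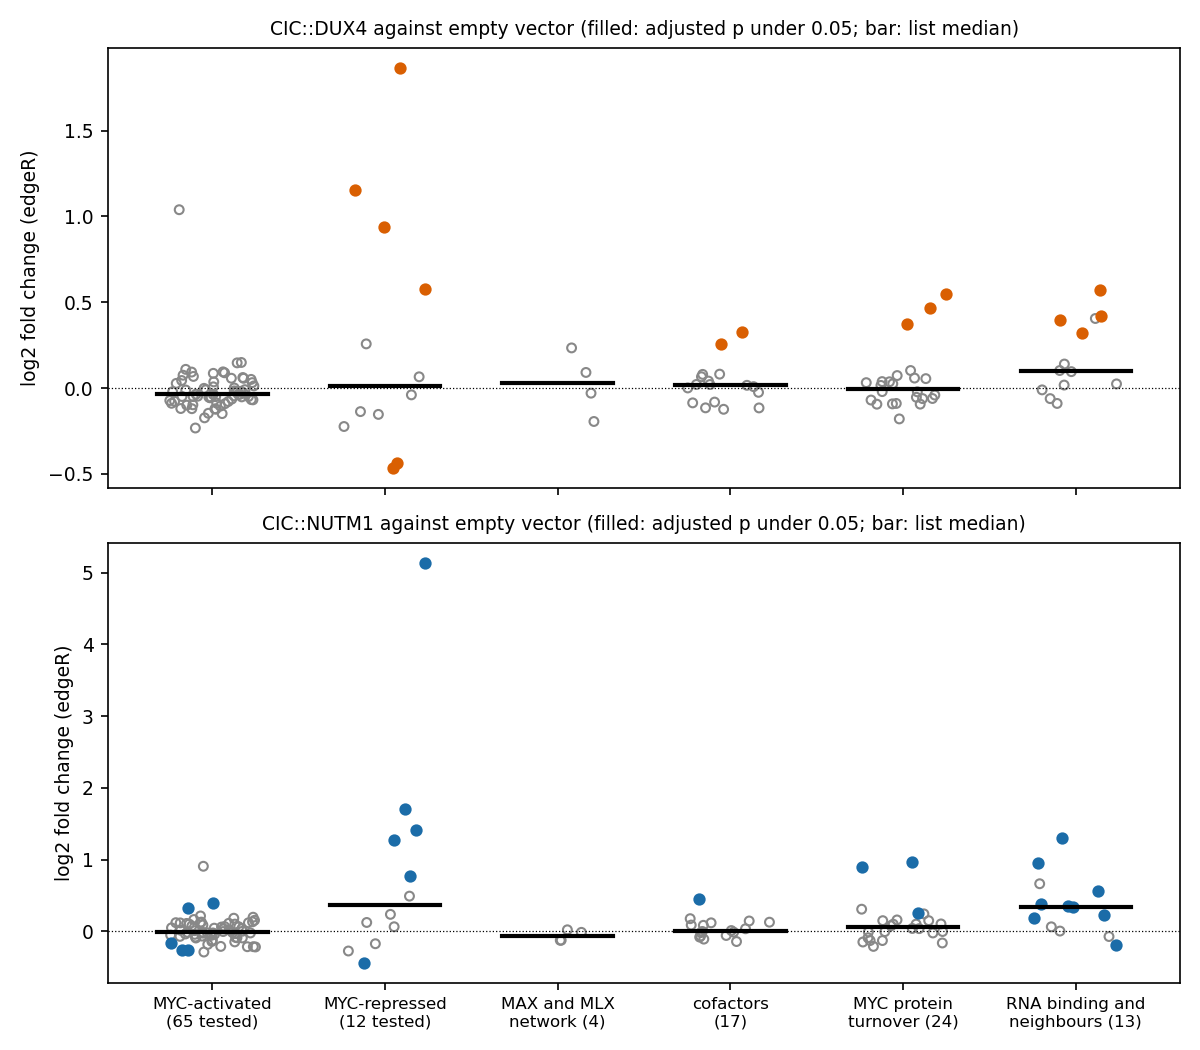
Log2 fold change (y axis, edgeR) of each tested gene against empty vector, CIC::DUX4 above and CIC::NUTM1 below, by gene list on the x axis; filled points have an adjusted p under 0.05 and bars are list medians. In the list of MYC-activated genes the medians are -0.04 and -0.01, and in that of MYC-repressed genes called points lie on either side of 0 in both panels.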

How the data were processed

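PolyA RNA of 9 libraries (3 groups of 3) was read from a table of raw counts per Ensembl gene that the authors deposited. The submitters' processing notes name STAR 2.7.10b, R 4.2.2, edgeR 3.40.2 and GRCh38, and the counting program, annotation and use of strand are not given in the sources used here. A second deposited table holds log2 CPM, and its values at the 9 members equalled TMM-scaled log2 CPM with a prior count of 2 computed from the counts (largest difference 5.33e-15).

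Counts were filtered with filterByExpr, scaled by TMM and tested with edgeR 4.0.16 (robust quasi-likelihood, 1 mean per group, all 9 libraries, 6 residual degrees of freedom before moderation) in R 4.3.3, adjusted by Benjamini-Hochberg over 17576 genes, and called at an adjusted p under 0.05. The common dispersion was 0.0102. Levels are TMM-scaled CPM. The SE was taken from the quasi-likelihood F statistic (absolute log2 fold change over root F), and 95% intervals use the moderated degrees of freedom (14.3 to 24.3 for the members). Replicate pairs differed by 5.82 to 10 times counting noise (chi-square per degree of freedom), so none was merged. Exons came from GENCODE 29 and promoter windows from RefSeq (GRCh38.p14), with no window used for MYC. Symbols matched 62622 of 62700 IDs, and the other 78 stayed in the library totals.

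The members and gene lists were chosen with earlier results of these data known. Named genes are all members, all called genes of the cofactor, turnover and RNA or promoter lists, the 5 largest called changes per direction in the target lists, and the 3 genes most correlated with MYC, MYCN, MYCL and each called member, some of which are not reported here. Alternatives were 3 other scalings, 2 other filters, DESeq2 1.42.0, limma 3.58.1 (limma-trend on the deposited log2 CPM), only the groups compared, a replicate block and each library left out in turn. On simulated data for CIC::DUX4 against empty vector, edgeR recovered 83% of 200 genes changed 2-fold among 17220 tested, and 6.74% of its calls were false. In the real data 1448 genes were called in this comparison, and no change was simulated for CIC::NUTM1. No smaller change was simulated either. These shares therefore do not apply to changes of the size seen for MYCL and MNT, to MXD1 with CIC::DUX4 or to the CIC::NUTM1 calls. Figures were drawn with matplotlib 3.10.9.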

Additional observations from a re-analysis of the deposited data

Results flagged for a closer look

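With the cell type markers left aside, the direct edgeR test between the fusions separated 1 member and 22 listed genes, each with an adjusted p under 0.05. These were 11.1% of the 9 members and 20.7% of the 58 other network genes tested. They were also 9.23% of the 65 MYC-activated and 33.3% of the 12 MYC-repressed genes tested, beside 6.61% of all tested genes. Values are log2 differences, CIC::NUTM1 minus CIC::DUX4. MNT, the member, differed by 0.31. Among genes known as repressed by MYC, THBS1 differed by 3.27, CDKN1B by 1.20, CDKN2B by 0.84 and CLU by 0.56. THBS1 rests on 5 or 6 counts in each empty vector library, 10 to 31 with CIC::DUX4 and 135 to 169 with CIC::NUTM1. Among genes that bind MYC-family RNA or promoters, TCF7L2 differed by 0.88, IGF2BP3 by 0.56, IGF2BP1 by 0.27, ELAVL1 by 0.26, FUBP1 by 0.20 and PCBP2 by -0.22. Among genes of MYC turnover, FBXW7 differed by 0.42, PIM1 by 0.41, USP37 by 0.37, STUB1 by 0.25 and GSK3B by -0.29. The cofactor ZBTB17 differed by -0.38. Among MYC-activated genes, PPAT differed by 0.31, ODC1 by 0.30, HSPD1 by 0.28, PHB1 by 0.19, NCL by 0.15 and SLC29A2 by -0.36. Each library was left out in turn. Of these 23 calls, that of NCL was then lost in 9 of 9 refits, those of PHB1 and PCBP2 in 8, that of MNT in 7, that of FUBP1 in 5 and those of USP37, PIM1 and ZBTB17 in 4. Those of ELAVL1, GSK3B and ODC1 were lost in 3, those of FBXW7 and PPAT in 2, and those of IGF2BP1 and STUB1 in 1. Without CIC::NUTM1 replicate 3, USP37 differed by 0.22.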

How the results depend on the processing

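Under the alternatives that kept all libraries of the groups compared, 227 of the members' values kept direction and call, 3 kept direction and lost the call, and 13 changed sign. The lost calls were those of MNT between the fusions with library totals, upper quartile factors or only the 2 groups compared (edgeR adjusted p = 0.0866, 0.0736 and 0.0859), so 0 members were then called there. The sign changes were in uncalled values near 0. With CIC::NUTM1, library totals, upper quartile factors and no filter gave MYC -0.02607, -0.02321 and -0.003068, MXD3 -0.03741, -0.03488 and -0.0137, and MXD4 -0.02904, -0.02637 and -0.006086. MAX became -0.006086 and -0.004297 under the first 2 of these, and MXD4 became -0.008508 between the fusions with library totals. The number of MYC-activated genes called with CIC::DUX4 became 1 with library totals, upper quartile factors or no filter and 2 with only the 2 groups compared, all lower. With CIC::NUTM1 it became 8 (2 higher, 6 lower) with library totals or upper quartile factors. The cause was not tested.

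Leaving out each library gave 1 to 3 members called with CIC::DUX4, 3 to 3 with CIC::NUTM1 and 0 to 2 between the fusions. MYC-activated counts ran from 0 to 2, 1 to 8 and 2 to 5, MYC-repressed counts from 4 to 7, 6 to 7 and 4 to 5, and counts of other network genes from 4 to 9, 8 to 16 and 4 to 11, in the same order. Ranges that crossed 0 were MXD3 with CIC::DUX4 (-0.1443 to 0.005283), MYC (-0.01572 to 0.05359), MAX (-0.002908 to 0.09387), MXD3 (-0.07435 to 0.1296) and MXD4 (-0.03342 to 0.03126) with CIC::NUTM1, and MXD3 (-0.01272 to 0.1868) and MXD4 (-0.008524 to 0.06489) between the fusions.

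Same-numbered libraries of different groups had an r of -0.0308 to 0.0753 over 9 pairs, beside -0.108 to 0.0698 for different-numbered pairs. Of 18 best matches, 9 had their own number. Whether same-numbered libraries share a transfection day is not given in the sources used here, and correlations this weak cannot decide it. With the replicate number as a block no member's call changed, MXD3 with CIC::NUTM1 became -0.001851, and 1 MYC-activated gene was called with CIC::DUX4. With CIC::DUX4, PVT1 and ZBTB17 had edgeR adjusted p of 0.0638 and 0.0570 under the replicate block.

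The members' limits differ: MYCN rests on 13 to 20 counts per empty vector library, and 3 libraries per group set the precision of the others. Transfection share, protein and strand use in counting were not measured or not given.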
